A study of Mus musculus with 6 samples.

Results

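The genes described here are 10 antioxidant genes of the mouse, measured by RNA sequencing in macrophages sorted from the brain: the selenoprotein genes Gpx1, Gpx3, Gpx4, Selenop and Txnrd1, the thioredoxin gene Txn1, the peroxiredoxin gene Prdx1, the superoxide dismutase genes Sod1 and Sod2, and the catalase gene Cat. They were taken by symbol from the 35598 gene identifiers of each table. All 10 were found, and all 10 were among the 10661 genes that passed the filter on low counts. The members were chosen by their role and with their CPM in the aged and young libraries already in view, so those levels are given as a description. No test is run on the members by themselves, and where fits across all genes called a member, it is named but nothing is read from the call.

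The cells were CNS-associated macrophages (CAMs), the resident macrophages of the vessels, membranes and choroid plexus that border the brain. They were sorted from brains as CD3-CD11b+CD45+CD206+ cells. The aged group was 3 libraries from male C57BL/6 mice of 18 months, and the young group 3 libraries from male C57BL/6 mice of 2 months. The labels name no genetic change, treatment or injury for either group. Nothing in them tells whether replicates are separate mice, pools or repeats of 1 preparation, so p-values measure the spread between these libraries alone, and that spread may be technical.

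Superoxide dismutases turn superoxide into hydrogen peroxide, which catalase, glutathione peroxidases and peroxiredoxins then remove. Glutathione peroxidases draw electrons from glutathione, and peroxiredoxins draw them from thioredoxin, which thioredoxin reductase recharges. Macrophages both make such oxidants, through the NADPH oxidase, and have to withstand them. Several of these enzymes are selenoproteins, in which the amino acid selenocysteine is inserted at a TGA codon that would otherwise end translation.

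These selenocysteine codons set the 5 selenoprotein members apart from the other 5, and each is shown within its reading frame. GENCODE M21 marks 1 such codon in Gpx1, Gpx3, Gpx4 and Txnrd1 and 10 in Selenop, against 0 in Txn1, Prdx1, Sod1, Sod2 and Cat. Each line below runs 5′ to 3′ on the plus strand of the spliced coding sequence, with the selenocysteine codon in capitals.
Gpx1, chr9:108339451-108339453: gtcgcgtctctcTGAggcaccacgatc
Gpx3, chr11:54907256-54907258: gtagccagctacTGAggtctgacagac
Gpx4, chr10:80054737-80054739: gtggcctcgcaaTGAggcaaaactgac
Selenop, first codon, chr15:3274848-3274850: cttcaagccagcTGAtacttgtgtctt
Selenop, last codon, chr15:3279696-3279698: aggaagtgaaaaTGAcattcaaac
Txnrd1, chr10:82896037-82896039: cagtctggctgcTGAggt
The coordinates are those of the capital codon in mm10. Codon numbers are those of the transcript with the most marked codons and, among equals, the longest coding sequence. In the 3 peroxidase genes the codon lies inside the reading frame, at codon 47 of 201 in Gpx1 and 73 of 226 in Gpx3. In Gpx4 it is number 129 of 253 in transcript Gpx4-201, 1 of 3 transcripts that carry it, and this number is for Gpx4-201 only. The next codon begins with the bases gg in Gpx1, Gpx3, Gpx4 and Txnrd1. The Txnrd1 codon is number 612 of 613, so its line stops with the coding sequence, as does the line of the last Selenop codon. Selenop carries its first codon at number 59 of 380 and the other 9 between numbers 259 and 377.

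Libraries held 30044365 to 32902652 counts in the aged group and 26605079 to 33306121 in the young group. Levels are CPM, the reads of a gene scaled to a common library total after TMM normalization. Each log2 fold change is the aged over the young level, given with its standard error (SE). Across all genes tested, edgeR's quasi-likelihood test called 1 of 10661 genes at an adjusted p under 0.05, which is 0.00938%. That gene was the B cell attractant Cxcl13, and none of the 10 members was called. The DESeq2 Wald test called 3.47% of the genes to which it gave an adjusted p (2.05% higher and 1.43% lower in aged libraries), and 1 of the 10 members, higher. The edgeR fit limited to a mean of at least 50 CPM called 1.15% of genes (0.871% higher and 0.275% lower), and 1 of the 9 members in it, higher. In both of these the member was Gpx3. It passed the limit of 50 CPM only through the aged libraries, with means of 155 CPM in aged and 34.6 CPM in young libraries. Nothing is read from these counts, since the members were picked with this contrast known.

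The sorted cells carried the defining markers of CAMs: Mrc1, which encodes CD206, was at 1182 to 2345 CPM in aged and 2674 to 2940 CPM in young libraries. The libraries also differed in the summed levels of markers of other cell types. The summed level of 10 CAM markers was 7700 to 16425 CPM in aged and 23873 to 27258 CPM in young libraries, and 5 of the 10 were lower in every aged library. For 10 microglia markers the sum was 8832 to 16298 CPM in aged and 3928 to 6683 CPM in young libraries, and 8 of the 10 were higher in every aged library. Neutrophil markers summed to 6.65 to 21607 CPM in aged and 12060 to 37768 CPM in young libraries, and red cell markers to 181 to 9886 CPM in aged and 10106 to 30506 CPM in young libraries, both lowest in aged replicate 3. The red cell sum was lower in every aged library. In aged replicate 2 the microglia, neutrophil and red cell sums (16298, 7982 and 9124 CPM) each exceeded the CAM sum (7700 CPM). The neutrophil sum also exceeded the CAM sum in aged replicate 1 and young replicate 1, and the red cell sum did so in young replicate 3. Choroid plexus markers summed to 569 to 8182 CPM in aged and 1118 to 11906 CPM in young libraries, with replicate 3 highest in each group. Sums for endothelium (247 to 626 CPM aged, 154 to 264 CPM young), astrocytes (107 to 462 CPM aged, 103 to 153 CPM young) and neurons (9.17 to 28.6 CPM aged, 35.7 to 150 CPM young) were far smaller than the CAM and microglia sums. The neuron sum was lower in every aged library. The endothelial gene Cldn5 did not exceed 4.39 CPM in any library, but Pecam1 was at 8.70 to 14.8 CPM in aged and 16.3 to 20.9 CPM in young libraries. The astrocyte gene Gfap did not exceed 0.959 CPM, but Aldoc reached 77.0 CPM in aged replicate 3 and 18.1 CPM in young replicate 2. In bulk libraries such as these, fewer cells of a type and less RNA per cell cannot be told apart.

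**Figure D1:**
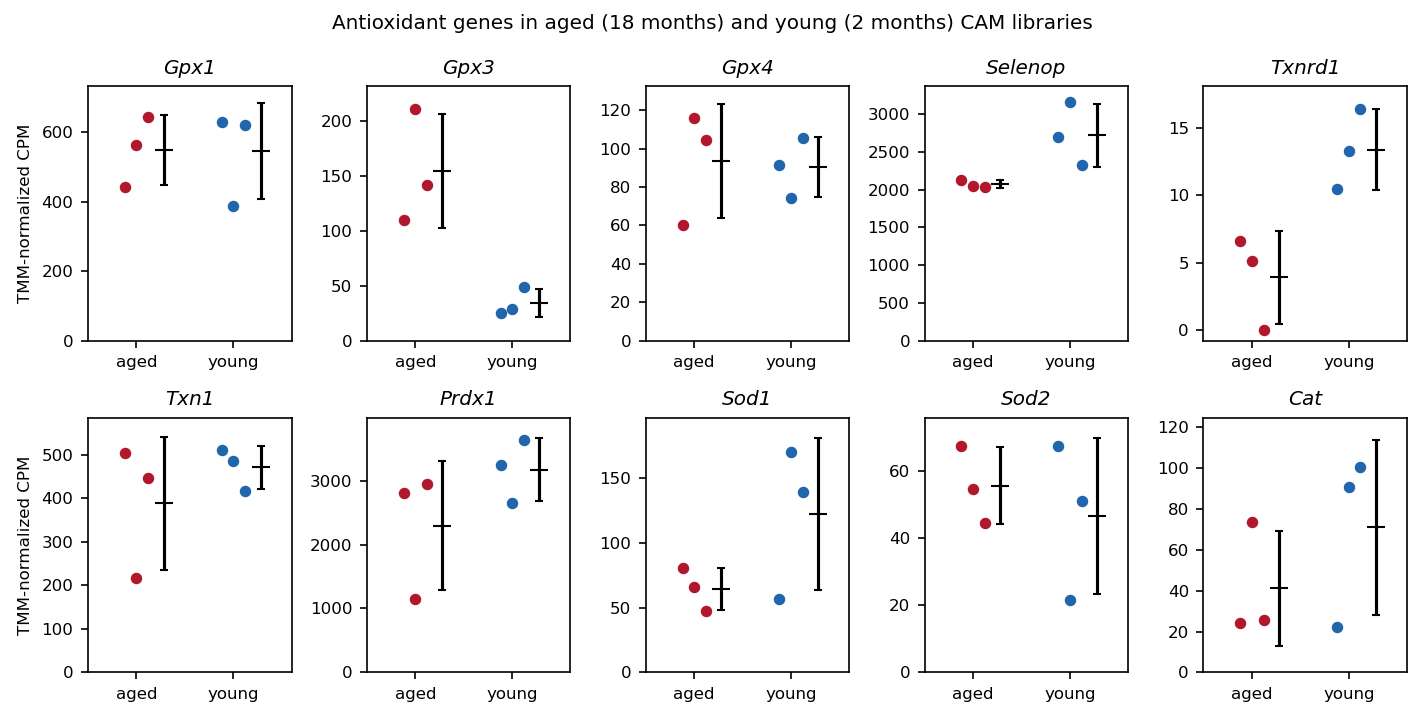
Level of each of the 10 antioxidant genes in TMM-normalized CPM (vertical axis, a separate scale for each gene) in the 3 aged libraries (red points, left) and the 3 young libraries (blue points, right), with the mean and SD of each group in black. Gpx3 lies at 110 to 212 CPM in aged and 25.5 to 49.5 CPM in young libraries, while for Gpx1, Gpx4, Txn1, Prdx1, Sod1, Sod2 and Cat the groups overlap.

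Gpx3 was the member with the highest fitted difference between ages, and the only one above in every aged library. It encodes the secreted glutathione peroxidase that is found in plasma (ENSMUSG00000018339.11, chr11:54902453-54910377). Its level was 110, 212 and 142 CPM in aged replicates 1 to 3, against 25.5, 28.7 and 49.5 CPM in young replicates 1 to 3. The lowest aged library thus stood above the highest young one, and aged replicate 2 was the highest of all. The means were 155 ± 52.0 CPM in aged and 34.6 ± 13.0 CPM in young libraries (SD, n = 3 each), with a log2 fold change of 2.16 (SE 0.47). The separation was also present in CPM on raw library totals, in the deposited TPM and with DESeq2 size factors. Over all genes tested, 7.54% were higher in every aged library (11.2% of those with a mean of at least 50 CPM), so 1 of 10 members is close to that share. Gpx3 counts ran from 772 to 8174 per library. The microglia sum was likewise higher in every aged library and highest in aged replicate 2, and its part in the Gpx3 difference was not tested. Among the 2188 other tested genes that averaged 50 CPM or more, the profiles nearest to Gpx3 over the 6 libraries were those of Eno1, Ppt1 and Ifngr1, with root mean square differences of 0.21, 0.30 and 0.32 in mean-centred log2 CPM, where the median gene was at 1.31. Eno1, a glycolytic enolase, was at 248 ± 70.1 CPM in aged and 49.5 ± 22.8 CPM in young libraries. Ppt1, a lysosomal thioesterase, was at 594 ± 43.8 CPM in aged and 164 ± 46.5 CPM in young libraries.

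The intracellular glutathione peroxidase genes lay at the same mean level in both groups, within the spread of the libraries. Gpx1, the widespread cytosolic enzyme (ENSMUSG00000063856.7, chr9:108338903-108340343), was at 441, 561 and 643 CPM in aged and 629, 388 and 619 CPM in young libraries. The means were 548 ± 101 CPM in aged and 545 ± 137 CPM in young libraries (SD, n = 3 each), a log2 fold change of 0.01 (SE 0.32). Gpx4, the enzyme that reduces lipid peroxides in membranes and so holds off ferroptosis (ENSMUSG00000075706.10, chr10:80047166-80056439), was at 60.1, 116 and 104 CPM in aged and 91.5, 74.3 and 105 CPM in young libraries. Its log2 fold change was 0.05 (SE 0.43), and for both genes the sign turned below 0 in 3 of 14 alternative fits.

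Some reads of Gpx4 may belong to a near copy, and the files list it with a short transcript length, which limits its value. The transcribed pseudogene Gpx4-ps2, also on chromosome 10, is at least 90% identical to it over at least 200 bases. Its level was 15.3, 27.1 and 26.8 CPM in aged and 25.7, 21.7 and 23.1 CPM in young libraries. The transcript length that the files list for Gpx4 was 468 to 502 bases in aged and 422 to 496 bases in young libraries, while the shortest annotated transcript with the selenocysteine codon has 735 bases.

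Selenop had the highest level of the selenoprotein members and was lower in every aged library on the TMM scale. It encodes selenoprotein P, a secreted carrier that supplies selenium to other cells (ENSMUSG00000064373.12, chr15:3268547-3280508). Its level was 2131, 2047 and 2035 CPM in aged and 2693, 3154 and 2321 CPM in young libraries. The aged libraries lay within a narrow band, with a mean of 2071 ± 52.3 CPM, below a wider young range with a mean of 2723 ± 417 CPM (SD, n = 3 each). The log2 fold change was -0.39 (SE 0.26). This order depended on the scale: the groups overlapped in CPM on raw library totals, where aged replicate 2 stood at 2401 CPM above young replicate 3 at 2293 CPM. They also overlapped in TPM, at 496, 771 and 497 TPM in aged and 575, 714 and 531 TPM in young libraries. On the TMM scale the CAM marker sum, like Selenop, was lower in every aged library and highest in young replicate 2. Its part in the Selenop difference was not tested.

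Part of the reads at the 3′ end of Selenop could not be assigned to it with certainty. The kit does not mark strand, and Ccdc152, a coiled-coil gene on the opposite strand, shares 439 exonic bases with the last exon of Selenop (chr15:3280070-3280508). In all 6 libraries the files list a length of 1327 bases for Ccdc152, which is that of its 1 annotated transcript that reaches into Selenop. Ccdc152 was at 194, 9.66 and 7.81 CPM in aged and 580, 328 and 349 CPM in young libraries, so every aged library was below every young one. With the reads of both genes added, the level was 2325, 2057 and 2042 CPM in aged and 3273, 3482 and 2670.4 CPM in young libraries. Ccdc152 made up 8.34%, 0.470% and 0.382% of this sum in aged and 17.7%, 9.43% and 13.1% in young libraries. Fitted as 1 gene, an alternative chosen after seeing the data, the log2 fold change was -0.55 (SE 0.26).

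**Figure D2:**
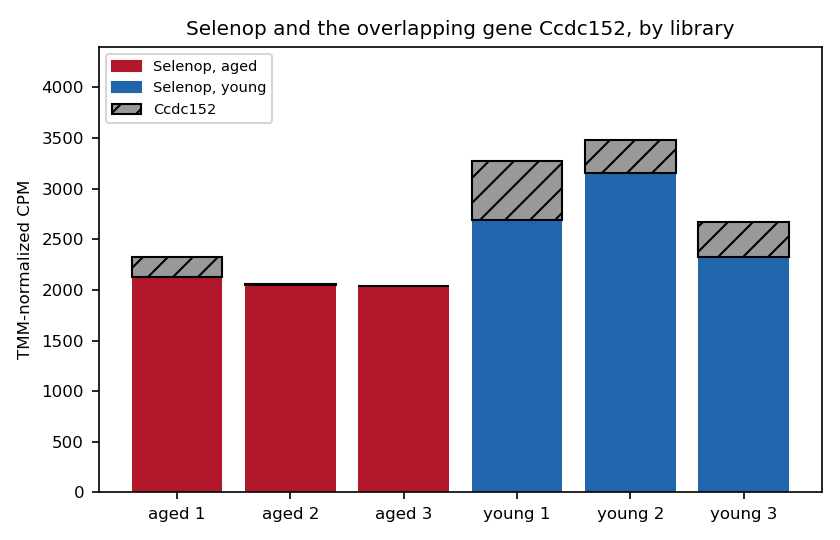
Stacked bars of Selenop (red for aged, blue for young) and Ccdc152 (grey, hatched) in TMM-normalized CPM (vertical axis) for each library. The sum of both is 2042 to 2325 CPM in the aged and 2670.4 to 3482 CPM in the young libraries.

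The thioredoxin system ranged from the lowest to the highest level among the members. Txnrd1, the cytosolic thioredoxin reductase (ENSMUSG00000020250.10, chr10:82833951-82897712), was at 6.60, 5.10 and 0 CPM in aged and 10.5, 13.3 and 16.5 CPM in young libraries. Every aged library was below every young one on the TMM scale, but in TPM the groups met, at 0 to 1.35 TPM in aged and 1.33 to 2.19 TPM in young libraries. Aged replicate 3 held 0 counts, which allows a level of up to 0.106 CPM (3 counts), and the other libraries held 190 to 460 counts. The log2 fold change was -1.78 with an SE of 1.90, wider than the difference itself. It was -2.39 without aged replicate 1 and -1.19 without aged replicate 3, the library with 0 counts. Over all genes tested, 7.19% were lower in every aged library (8.45% of those with a mean of at least 50 CPM), beside 2 of the 10 members, Selenop and Txnrd1.

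Txn1 and Prdx1, the partners of Txnrd1, were abundant and lowest in the same library. Txn1, cytosolic thioredoxin (ENSMUSG00000028367.5, chr4:57943373-57956411), was at 505, 216 and 446 CPM in aged and 511, 486 and 417 CPM in young libraries. Prdx1, a cytosolic peroxiredoxin (ENSMUSG00000028691.12, chr4:116685544-116700822), was at 2802, 1142 and 2948 CPM in aged and 3242, 2644 and 3633 CPM in young libraries. For both genes aged replicate 2 was far below the other 5 libraries, and without it the groups still overlapped. The log2 fold changes were -0.28 (SE 0.36) for Txn1 and -0.47 (SE 0.38) for Prdx1, and without aged replicate 2 they were 0.02 and -0.14. Aged replicate 2 also had the highest microglia sum, the lowest CAM sum and the highest TMM factor (1.18, against 0.942 to 1.01 in the others), and the part of these in its values was not tested. Over the 6 libraries, Mrps21 and Gclm were among the profiles nearest to Prdx1, with root mean square differences of 0.08 each in mean-centred log2 CPM. Gclm encodes the modifier subunit of the enzyme that starts glutathione synthesis, and was at 187, 80.7 and 202 CPM in aged and 195, 188 and 233 CPM in young libraries.

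The superoxide dismutase and catalase genes overlapped between the ages, and each had its larger SD in CPM among the young libraries. For Cat, however, the SD as a share of the mean was larger in aged libraries (68.2% against 60.1%), as was the SD in TPM (9.13 against 7.48). Sod1, the cytosolic copper and zinc enzyme (ENSMUSG00000022982.10, chr16:90220754-90226329), was at 80.4, 65.5 and 47.7 CPM in aged and 56.9, 170 and 139 CPM in young libraries. Young replicates 2 and 3 were the highest, while young replicate 1 lay within the aged range, and the log2 fold change was -0.92 (SE 0.50). Cat, the peroxisomal catalase (ENSMUSG00000027187.10, chr2:103453849-103485160), was at 24.4, 73.5 and 25.4 CPM in aged and 22.0, 90.8 and 100.3 CPM in young libraries. It split each group, with 1 of 3 aged and 2 of 3 young libraries above 70 CPM, and its log2 fold change was -0.79 (SE 0.72). That value rested on single libraries, at -1.51 without aged replicate 2 and -0.45 without young replicate 3. Both genes are abundant in red cells, whose summed markers were lower in every aged library, highest in young replicate 3 and lowest in aged replicate 3. The red cell sum in young replicate 1, at 13813 CPM, was above the 10106 CPM of young replicate 2, the reverse of the order of Sod1 and Cat in these libraries, and the part of red cells in these values was not tested. Profiles nearest to Sod1 were those of Rsl1d1, Eps15 and Kctd12, at root mean square differences of 0.25, 0.29 and 0.31.

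Sod2, the mitochondrial manganese enzyme (ENSMUSG00000006818.5, chr17:13006846-13040063), was at 67.6, 54.9 and 44.7 CPM in aged and 67.5, 21.5 and 51.2 CPM in young libraries. Young replicate 2 was the lowest, the others lay close together, and the log2 fold change was 0.25 (SE 0.59), or -0.09 without young replicate 2 and 0.62 without young replicate 1. The length that the files list for Sod2 was 904 to 958 bases in aged and 938 to 1736 bases in young libraries, against 5861 bases for the main coding transcript, and the longest value was that of young replicate 2. Its TPM was therefore the measure most affected by the choice of transcript, at 39.8, 50.9 and 29.1 TPM in aged and 28.4, 5.99 and 30.6 TPM in young libraries. That transcript also shares stretches of at least 200 bases at 90% identity or more with 11 other genes of the tables. Txn1, Prdx1 and Sod1 have 1, 3 and 1 such pseudogene copies, which are not in the tables, so some of their reads may come from these.

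**Figure D3:**
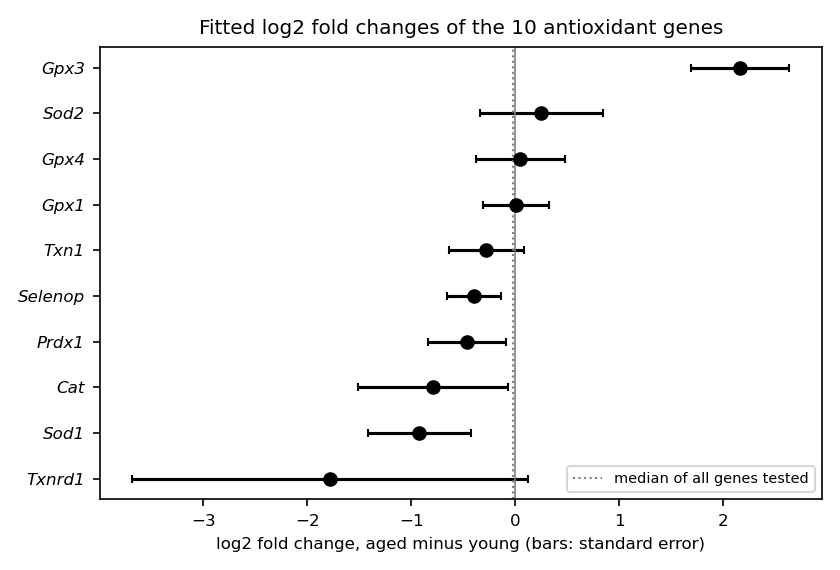
Fitted log2 fold change, aged minus young (horizontal axis, bars show the standard error), of the 10 genes, ordered from highest to lowest. Gpx3 is at 2.16 and Txnrd1 at -1.78, and the other 8 lie between -0.92 and 0.25, around the median of all genes tested at -0.02 (dotted line).

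Taken as a list, 4 of the 10 genes had fitted values above 0 and 6 below, with a median of -0.34. Of all genes tested 49.3% lay above 0, with a median of -0.02. Summed over the 5 selenoprotein members, the level was 2749, 2941 and 2924 CPM in aged and 3449, 3658 and 3112 CPM in young libraries, a sum made mostly of Selenop.

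The order of the members by level per length was nearly the same at both ages. In TPM, which divides reads by transcript length, Prdx1 was first at 1565 ± 412 TPM in aged and 1842 ± 326 TPM in young libraries (SD, n = 3 each), and its lowest library was above the highest of any other member. Selenop followed at 588 ± 158 TPM in aged and 607 ± 95.7 TPM in young libraries, then Gpx1 at 422 ± 143 TPM in aged and 334 ± 89.7 TPM in young libraries. Below them came Txn1 at 228 ± 43.7 TPM in aged and 239 ± 20.0 TPM in young libraries, Gpx4 at 194 ± 94.7 TPM in aged and 167 ± 37.0 TPM in young libraries, and Sod1 at 76.4 ± 27.3 TPM in aged and 124 ± 61.4 TPM in young libraries. Sod2, Gpx3 and Cat followed by median, though by mean Gpx3 stood above Sod2 in aged libraries (59.2 against 39.9 TPM) and below Cat in young ones (10.3 against 12.2 TPM), and Txnrd1 was last, at no more than 2.19 TPM in any library, below every library of Cat. From Selenop down to Cat, each gene overlapped the next one over the 6 libraries. Within 1 age, Selenop stood clear of Gpx1 in the young libraries, Gpx1 of Txn1 in the aged, Txn1 of Gpx4 in the young and Sod1 of Sod2 in the young. Gpx3 was above Cat in every aged library (33.4 to 100.3 TPM for Gpx3, 4.25 to 20.2 TPM for Cat), while in the young libraries they overlapped (7.47 to 14.8 TPM for Gpx3, 3.61 to 17.3 TPM for Cat).

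**Figure D4:**
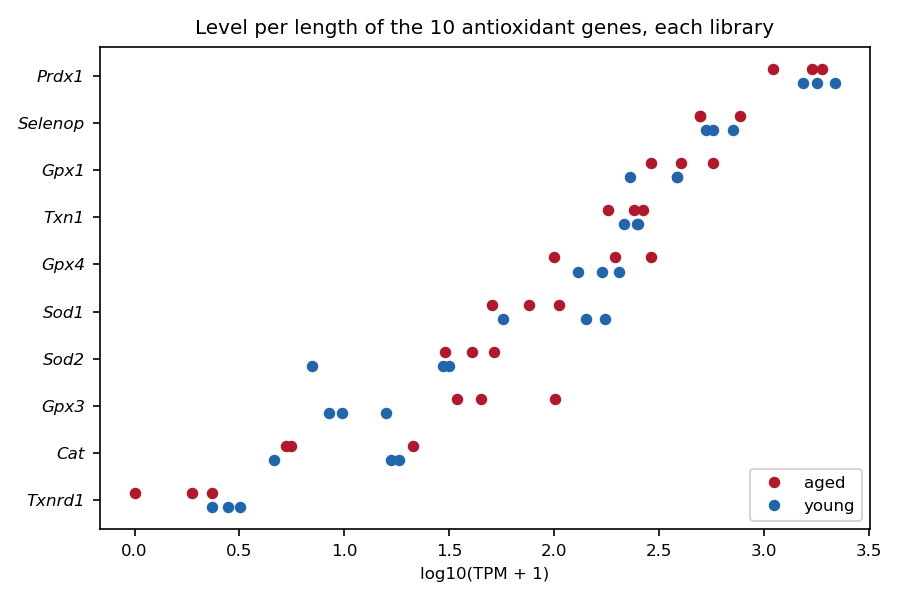
Level per length of the 10 genes as log10(TPM + 1) (horizontal axis), with 1 red point for each aged and 1 blue point for each young library. Prdx1 stands above all others at 1102 TPM or more, Txnrd1 lies below all others, and Gpx3 shows its aged points to the right of its young ones.

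The other genes of the antioxidant pathway were read from 7 lists of 111 genes that hold none of the 10 members. Of these, 85 passed the filter on low counts, and edgeR's quasi-likelihood test called 0 higher and 0 lower in aged libraries over all genes tested. At an unadjusted p under 0.05 there were also 0 of 85, against 5.67% of all genes, and the DESeq2 Wald test called 0. The lowest adjusted p in the edgeR fit was 0.900, that of Selenon. Fitted values were above 0 for 53 and below 0 for 32 of the 85, with a median of 0.24 against -0.02 for all genes. Only 38 of the 85 averaged 50 CPM or more, and the widest fitted values belonged to genes below that. The widest, that of Gclc, was 3.34 with an SE of 2.23, so nothing is read from the median. In every aged library 9 genes (10.6%) were higher and 4 (4.71%) lower than in any young one, where all genes gave 7.54% and 7.19%.

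Among the other selenoprotein genes 13 of 19 were tested, with a median log2 fold change of -0.06. The most abundant were Selenok and Selenos, which act in the clearance of misfolded proteins from the endoplasmic reticulum, and Selenof, a protein of the same compartment. Selenok was at 671 ± 206 CPM in aged and 795 ± 80.3 CPM in young libraries, Selenof at 390 ± 48.7 CPM in aged and 444 ± 95.2 CPM in young libraries, and Selenos at 296 ± 53.9 CPM in aged and 290.2 ± 102 CPM in young libraries (SD, n = 3 each). Selenon was at 1.69 ± 1.58 CPM in aged and 16.5 ± 2.72 CPM in young libraries, with every aged library below every young one. Sephs2, which makes the selenium donor, was at 19.1 ± 7.38 CPM in aged and 5.72 ± 2.52 CPM in young libraries, with every aged library above. Neither passed the test.

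The list of selenocysteine synthesis and selenium supply genes had 10 of 13 tested members and a median of 0.65. All but Rpl30 had a mean below 50 CPM. Cbs, an enzyme of the path from homocysteine to cysteine, was higher in each aged library but under 0.6 CPM in all 6. Rpl30, a ribosomal protein that also binds selenoprotein messages, was at 530.5 ± 227 CPM in aged and 718 ± 41.6 CPM in young libraries. Secisbp2, which reads the selenocysteine signal in the message, averaged 25.8 CPM in aged and 20.1 CPM in young libraries (log2 fold change 0.36, SE 0.98), and its relative Secisbp2l at 30.1 ± 26.4 CPM in aged and 26.1 ± 16.7 CPM in young libraries.

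The other peroxiredoxin, thioredoxin and glutaredoxin genes had 16 of 22 tested members and a median of 0.15. Prdx2, a cytosolic peroxiredoxin, was at 326 ± 55.1 CPM in aged and 353 ± 85.2 CPM in young libraries. Txnip, which binds and inhibits thioredoxin, was at 393 ± 108 CPM in aged and 279 ± 53.6 CPM in young libraries (log2 fold change 0.49, SE 0.33). Txndc17, a thioredoxin-related protein, was at 424 ± 170 CPM in aged and 595 ± 85.7 CPM in young libraries. Mitochondrial thioredoxin, Txn2, was above in each aged library in CPM (log2 fold change 1.02, SE 0.57) and did not pass. In TPM its groups overlapped, with aged replicate 1 at 69.5 TPM below young replicate 1 at 100.8 TPM.

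Of 6 superoxide dismutase, copper chaperone and metallothionein genes 5 were tested, with a median of 0.24. Ccs, the chaperone that loads copper into Sod1, was at 27.7, 51.4 and 37.9 CPM in aged and 0.929, 19.6 and 0.179 CPM in young libraries, without overlap (log2 fold change 2.50, SE 1.48) and without passing. The copper carrier Atox1 was at 690.1 ± 257 CPM in aged and 890 ± 107 CPM in young libraries. The metallothionein Mt1 was at 585 ± 101 CPM in aged and 759 ± 41.9 CPM in young libraries, with every aged library below. In TPM its groups overlapped, with aged replicate 2 at 1014 TPM above young replicate 1 at 996 TPM. Mt2 was at 20.7 ± 5.48 CPM in aged and 7.14 ± 1.82 CPM in young libraries, with every aged library above, while Mt3 was at 61.5 ± 63.4 CPM in aged and 52.1 ± 39.7 CPM in young libraries.

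Glutathione genes had 18 of 21 tested members, a median of 0.02, and 9 fitted values on each side of 0. The membrane glutathione transferase Mgst1 was at 266 ± 135 CPM in aged and 149 ± 92.8 CPM in young libraries, and Gstm1, another transferase, at 180.1 ± 154 CPM in aged and 85.9 ± 35.4 CPM in young libraries. Gstp1 was higher and Gstk1 lower in each aged library (log2 fold changes 0.83, SE 0.45, and -1.01, SE 0.54), and neither passed.

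For Nrf2, the transcription factor that drives many of these genes, 14 of 18 regulators and targets were tested, with a median of 0.19. Nfe2l2, the gene of Nrf2 itself, had a log2 fold change of 0.32 (SE 0.33). The ferritin genes Fth1 and Ftl1 were the most abundant, Fth1 at 11736 ± 3881 CPM in aged and 12786 ± 1289 CPM in young libraries and Ftl1 at 4920.1 ± 860 CPM in aged and 4735 ± 523 CPM in young libraries. Blvrb, a biliverdin reductase, was lower in each aged library, at 315 ± 89.5 CPM in aged and 463 ± 67.6 CPM in young libraries, and Taldo1 was higher in each (log2 fold change 0.67, SE 0.39). Neither passed.

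The oxidant-source genes had 9 of 12 tested members and a median of 0.55, with 8 of 9 fitted values above 0. Cyba, the small membrane subunit of the NADPH oxidase, was at 1099, 1266 and 1446 CPM in aged and 996, 793 and 817 CPM in young libraries, higher in each aged library (log2 fold change 0.55, SE 0.27, adjusted p = 0.913 in edgeR's quasi-likelihood test). Its partner Cybb, the catalytic subunit, was at 388 ± 78.1 CPM in aged and 440 ± 77.3 CPM in young libraries (log2 fold change -0.18, SE 0.30), and Rac1, a GTPase of the same complex, at 308 ± 113 CPM in aged and 240.3 ± 46.3 CPM in young libraries. Xdh, the xanthine dehydrogenase gene, was at 14.4, 10.2 and 68.1 CPM in aged and 3.84, 9.75 and 0.286 CPM in young libraries, without overlap and without passing (log2 fold change 2.74, SE 1.43).

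**Figure D5:**
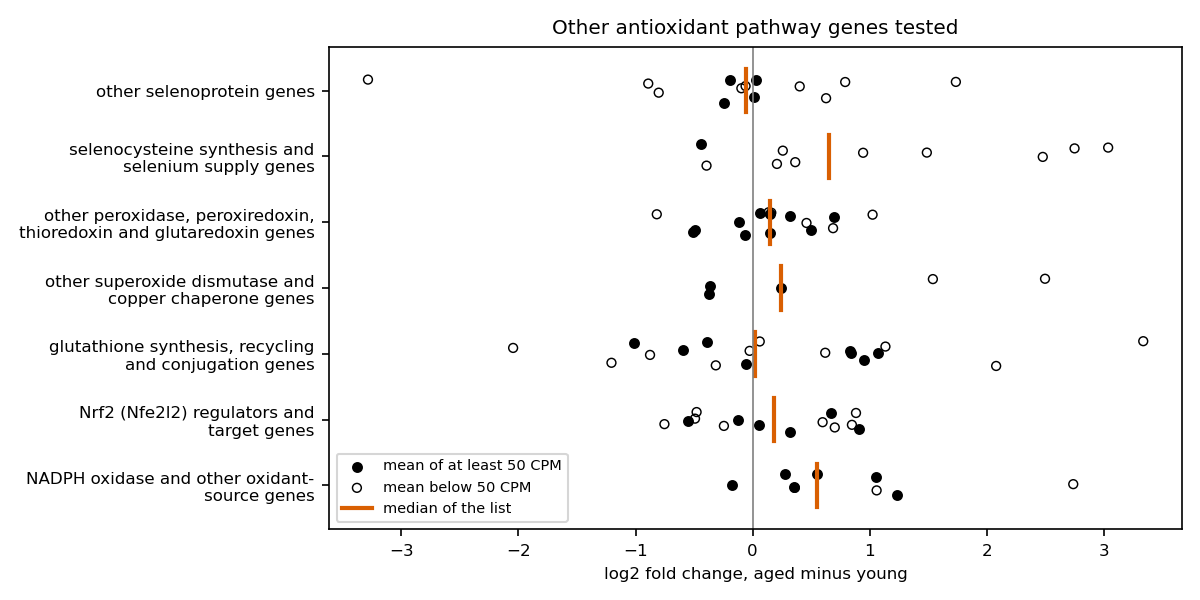
Log2 fold change, aged minus young (horizontal axis), of the 85 tested pathway genes in 7 lists (rows), with filled points for a mean of at least 50 CPM, open points below it, and an orange bar at each list's median. No gene passed the test, the widest values belong to genes below 50 CPM, and the medians run from -0.06 to 0.65.

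Nrf2 acts through the antioxidant response element, and its core was searched in the promoters of the members as a description of their sequence. RefSeq promoters of GRCm38.p6, 250 bases before to 50 after each start, were matched for all 10 genes, with 17 promoters in all. The letters TGACNNNGC were found on either strand in 3 of the 10 genes, and in 14% of the 27025 genes with a promoter. A gene counted if any of its promoters held them, and members had more promoters per gene than genes in general. Counted by promoter, the letters were in 3 of the 17 promoters of the members and in 12.4% of all 32851 promoters. The matches are shown 5′ to 3′ on the strand of the gene, with the matched letters in capitals. All 3 read as the core on the opposite strand.
Prdx1, chr4:116685466-116685474: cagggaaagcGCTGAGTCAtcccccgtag
Txnrd1, chr10:82859114-82859122: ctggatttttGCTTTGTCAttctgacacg
Sod1, chr16:90220706-90220714: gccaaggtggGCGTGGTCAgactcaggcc
These 3 genes had fitted log2 fold changes of -0.47, -1.78 and -0.92 on the scale given above. The promoters of Gpx1, Gpx3, Gpx4, Selenop, Txn1, Sod2 and Cat did not hold these letters in the window searched. In that order, the log2 fold changes of these genes were 0.01, 2.16, 0.05, -0.39, -0.28, 0.25 and -0.79. A relation between the letters and the fold changes was not tested.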

How the data were processed

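Per the labels' protocols, cDNA was made from about 500 pg of RNA with a low-input kit that does not mark strand, amplified over 13 PCR cycles and sequenced as single reads. Per the submitters' processing notes, the tools were bcl2fastq 2.20, fastp, FastQC, Picard and DRAGEN, and the build was mm10. What each did, and the annotation used, is not given in the sources used here. Per the file headers, the authors deposited an estimated count per gene (unscaled), TPM and transcript length.

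Estimated counts were rounded to whole numbers, and 35513 of 35598 identifiers matched GENCODE M21. edgeR 4.0.16 in R 4.3.3 (filterByExpr, TMM, robust quasi-likelihood F test, Benjamini-Hochberg adjustment over 10661 genes, threshold 0.05, two-sided) compared 3 aged with 3 young libraries. Each SE is the size of the log2 fold change divided by the root of its F. Near copies were searched with BLAST 2.17.0. Profiles were compared on log2(CPM + 0.5). The script was tested on simulated data. A limit of 3 counts for a count of 0 covers counting error only.

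The members and lists were chosen with earlier results of these data known. The text names all members, the 3 most abundant genes of a list with no call, the 3 profiles nearest to each of 3 members (1 of them is not reported here), overlapping genes and near copies. The other pathway genes named, among them those without overlap between groups and Nfe2l2, were chosen after their values were seen. Alternatives were DESeq2 1.42.0, limma 3.58.1 (voom, and trend on log2(TPM + 1)), other filters and scalings, a replicate block and leaving out each library.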

Additional observations from a re-analysis of the deposited data

How the results depend on the processing

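Over all genes, edgeR called 1 higher and 0 lower. DESeq2 called 261 higher and 182 lower, edgeR without a filter 51 higher and 11 lower, and edgeR on genes averaging 50 CPM or more 19 higher and 6 lower. Limma-voom called 0 higher, with 936 genes below an unadjusted p of 0.05. With each library left out in turn, 0 to 2 were called higher and 0 to 1 lower. Pathway genes stayed at 0 called under all alternatives run. Members lower in every aged library (2) became 1 on raw library totals and 0 in TPM; the 1 higher, Gpx3, kept its place. Of 139 member fold changes under alternatives, 135 moved by less than 1 SD between replicates. This limit is wide, at 0.34 for Gpx1 (log2 fold change 0.01) and 1.06 for Cat (-0.79). The sign was opposite to that of the main fit in 8 of the 139. The 4 that moved by more than the limit were Txnrd1 in limma-voom (-3.91), Sod2 (1.10) and Selenop (-0.07) in TPM, and Selenop with Ccdc152 (-0.55). The TPM fit shifted the median of all genes by 0.22 on the log2 scale. The Gpx3 value stayed between 1.87 and 2.52. Deviations of same-numbered libraries from their group means were only weakly correlated across genes (-0.01, 0.04 and 0.09), though both replicates 3 had high choroid plexus markers. The labels do not say what a number marks, so the libraries were not treated as paired. With a replicate block, 1 gene was called higher and 0 lower. Txnrd1, which had the lowest counts of the members, also had their largest SE (1.90), and its aged replicate 3 held 0 counts.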
